A study of Mus musculus with 6 samples.

Results

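The genes described here are 10 ion channels, receptors and calcium sensors through which calcium and other cations enter a mast cell or are held in balance, Stim1, Stim2, Orai1, Orai2, P2rx1, P2rx4, P2rx7, Trpv2, Trpm4 and Kcnn4. They were chosen by name, and all 10 were among the 55809 genes of the count tables and among the 16716 genes that passed the filter on low counts. The libraries hold poly-A RNA of mast cells sorted from the skin of C57BL6J mouse fetuses at embryonic day 18.5. In both groups the dams were aged 8 to 10 weeks. In the prenatal stress (PS) group the dams were restrained in tubes under bright light 3 times a day for 30 minutes. The restraint ran from day 13 or 13.5 to day 18 or 18.5, depending on which label is read. In the control (CT) group the dams were left undisturbed. Each group has 3 libraries, each from a pool of 4 mice, and both sexes were used. The number of litters behind each pool is not stated, and p-values therefore speak only of pool-to-pool spread. The sort kept cells with CD45, CD117 and ST2 on their surface and without F4/80 and CD64, which are macrophage proteins.

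When antigen binds IgE on a mast cell, calcium is first released from the endoplasmic reticulum. STIM1 and STIM2 sense the emptied store and open ORAI channels in the plasma membrane, and the calcium that enters drives degranulation and NFAT activity. P2X receptors are cation channels opened by ATP outside the cell, so they couple tissue damage to calcium entry. TRPV2, TRPM4 and KCNN4 act beside them, since TRPM4 is opened by calcium and depolarises the membrane, which lowers the drive for calcium entry, while KCNN4 is a calcium-activated potassium channel that hyperpolarises the membrane and maintains it.

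The libraries held 51710555 to 74735139 counts in genes, and the counts of single members lay between 219 (Kcnn4) and 19861 (P2rx1). The mast cell genes Kit, which encodes CD117, and Il1rl1, which encodes ST2, were at 1890 to 2330 and 1770 to 2200 CPM (read counts scaled to a common library size) in PS libraries, against 1640 to 1920 and 1330 to 1540 CPM in CT libraries. Of 12 mast cell markers, 7 were higher in PS libraries, 0 lower and 5 did not pass the test, and their summed level was 85363 to 102868 CPM in PS libraries against 58907 to 71178 CPM in CT libraries. The 16 macrophage and monocyte markers were all detected, with a summed level of 5556 to 8564 CPM in PS libraries and 7255 to 8271 CPM in CT libraries, although the sort excluded cells with F4/80 and CD64. PS replicate 3 stood apart from the other PS libraries, since its mean macrophage marker level was 8.23 log2 CPM, against 7.76 and 7.63 in PS replicates 1 and 2 and 7.99, 8.17 and 8.19 in the CT libraries. Of 6 melanocyte markers, 5 were higher in PS libraries, and their sum was 29.5 to 72.2 CPM in PS libraries and 14.3 to 20.4 CPM in CT libraries. Fibroblast and endothelial markers summed to 126 to 251 CPM in PS libraries and 110 to 140 CPM in CT libraries, and keratinocyte markers to 0.989 to 10.6 CPM in PS libraries and 1.14 to 1.67 CPM in CT libraries.

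Of the 10 members, 1 passed the test, Orai2, which was higher in PS libraries. A gene passed when its p from edgeR's quasi-likelihood test, adjusted over all 16716 genes by the method of Benjamini and Hochberg, was under 0.05. Over all genes tested, 6.19% passed, 4.34% as higher and 1.85% as lower in PS libraries, so the count of 1 in 10 is close to this background. Before adjustment, 5 members had a p under 0.05, against 24.8% of all genes. In 5 members (Stim1, Orai2, P2rx1, P2rx4, Trpv2) every PS library lay above every CT library, in 2 (Stim2, Kcnn4) every PS library lay below, and in 3 (Orai1, P2rx7, Trpm4) the groups overlapped. Such a separation was found in 30.6% of all genes tested, in 16.0% as higher and in 14.5% as lower. The median log2 fold change of the 10 members was 0.07, beside -0.00387 over all genes. With libraries scaled by their totals alone the median over all genes moved to -0.12 and the genes that passed were 553 higher and 1532 lower, against 725 higher and 310 lower with TMM factors. With library totals the members without overlap were Stim1 and Orai2 as higher and Stim2 and Kcnn4 as lower, against a background of 38.1%. In bulk libraries a smaller number of cells of a type and less RNA per cell cannot be told apart.

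**Figure D1:**
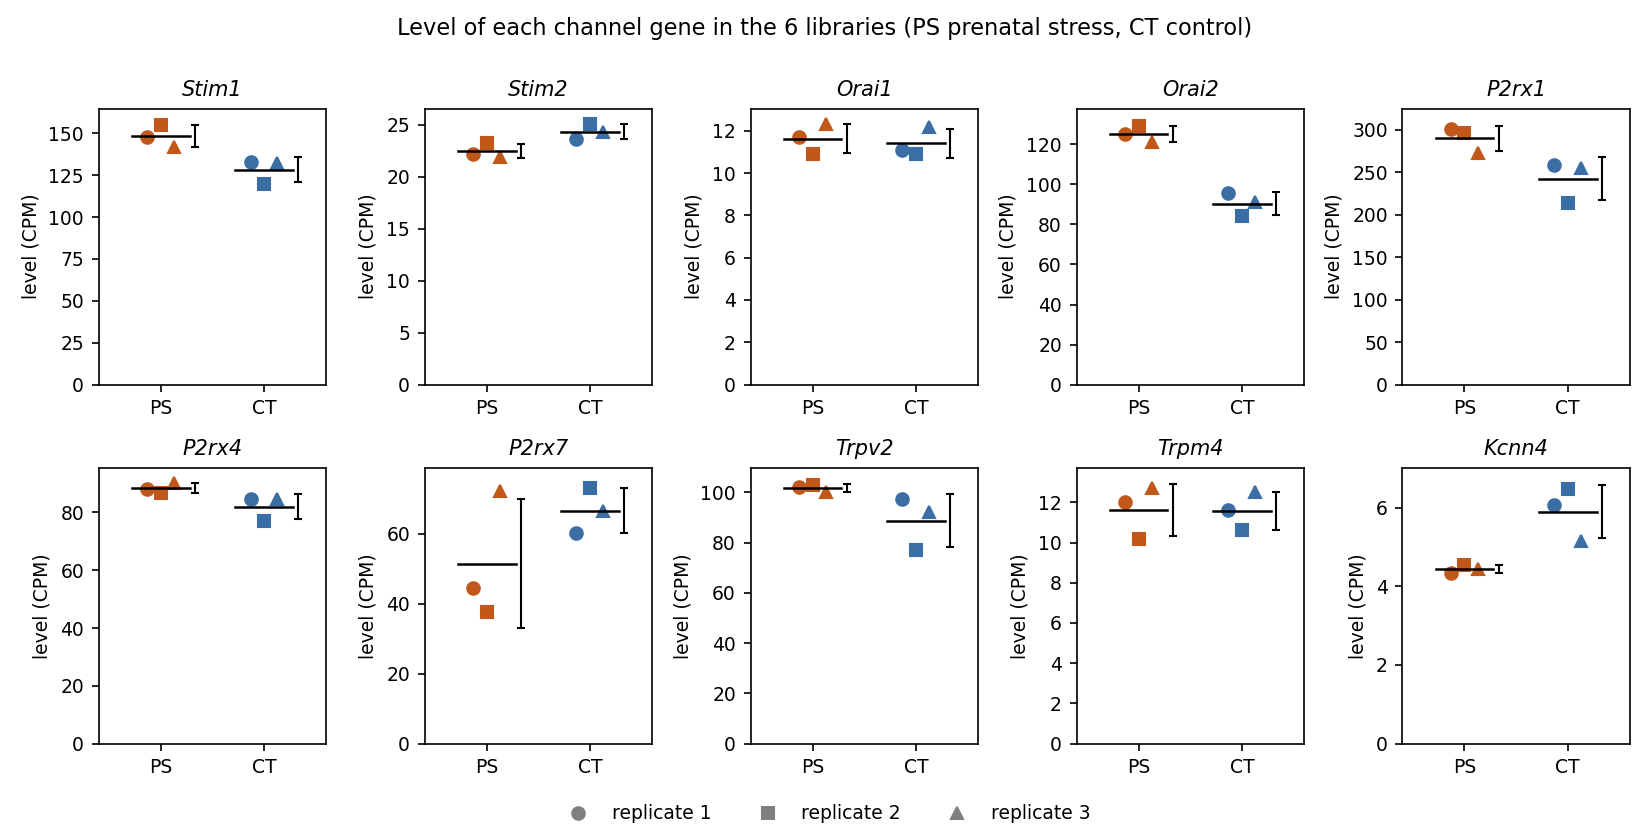
Level of each of the 10 members in CPM per library (points), for PS and CT libraries, with the group mean and SD (n = 3 each). Orai2 had all PS libraries at 121 to 129 CPM and all CT libraries at 84.3 to 95.7 CPM, and P2rx7 had PS replicate 3 at 72.3 CPM, above PS replicates 1 and 2 at 44.5 and 37.7 CPM.

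Orai2 encodes a pore subunit of the store-operated calcium channel. It can join ORAI1 in mixed channels, and in mouse mast cells its deletion has been reported to raise calcium entry. Orai2 had 125, 129 and 121 CPM in PS libraries, against 95.7, 84.3 and 91.3 CPM in CT libraries. The lowest PS library was above the highest CT library. Its mean was 125 ± 3.98 CPM in PS libraries and 90.5 ± 5.75 CPM in CT libraries (SD, n = 3 each), a 1.38-fold higher level with a log2 fold change of 0.47 ± 0.06 (SE; adjusted p = 0.00796, edgeR quasi-likelihood test). It passed in 14 of 14 alternative fits, with log2 fold changes of 0.35 to 0.51 and adjusted p of 4.16e-08 to 0.0362 (edgeR, limma-voom or DESeq2). In the same fits the share of all genes that passed was 6.20% with RLE factors, 12.5% with library totals, 6.60% without a filter, 9.50% with a stricter filter, 14.8% with DESeq2, 5.96% with limma-voom, 3.72% with the replicate number as a block and 4.67% with the macrophage covariate. It was 2.67%, 1.14% and 15.4% without PS replicates 1, 2 and 3, and 2.69%, 1.33% and 2.27% without CT replicates 1, 2 and 3. Without PS replicate 3 the log2 fold change was 0.48 (adjusted p = 0.00189, edgeR), and with the mean macrophage marker level as a covariate it was 0.42 (adjusted p = 0.00756, edgeR). Of the 12 mast cell markers, 7 were higher in the same PS libraries. The median log2 fold change of these 12 markers was 0.45, near that of Orai2, while Kit had 0.23. The part of the markers in the Orai2 level was not tested. As a share of Kit counts, Orai2 was 5.36%, 5.97% and 6.42% in PS libraries, against 4.98%, 5.16% and 4.82% in CT libraries, so the groups stayed apart. As a share of the counts of Cpa3, a mast cell protease gene that was itself higher in PS libraries, it was 0.365%, 0.312% and 0.368% in PS libraries and 0.365%, 0.388% and 0.347% in CT libraries, and the groups overlapped. These shares were chosen after the values were seen and were not tested.

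The DNA before the start of Orai2 is shown beside that of Orai1, whose PS and CT libraries overlapped, and of Kcnn4, because a motif search found different numbers of the letters CACGTG in them. CACGTG is a palindromic E-box bound by basic helix-loop-helix leucine zipper proteins, MITF among them. The sequences are the 250 bases before the annotated start from RefSeq on GRCm38.p6, which is not known to be the build of the count tables, and lie at chr5:136170657-136170906 on the minus strand (Orai2), chr5:123014824-123015073 on the plus strand (Orai1) and chr7:24370013-24370262 on the plus strand (Kcnn4). They read 5′ to 3′ on the gene's strand, with CACGTG in capitals:
Orai2: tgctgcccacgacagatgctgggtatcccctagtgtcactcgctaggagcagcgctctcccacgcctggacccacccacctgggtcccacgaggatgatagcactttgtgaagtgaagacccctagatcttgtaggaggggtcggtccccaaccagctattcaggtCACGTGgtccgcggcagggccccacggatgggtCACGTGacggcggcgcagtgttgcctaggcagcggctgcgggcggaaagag
Orai1: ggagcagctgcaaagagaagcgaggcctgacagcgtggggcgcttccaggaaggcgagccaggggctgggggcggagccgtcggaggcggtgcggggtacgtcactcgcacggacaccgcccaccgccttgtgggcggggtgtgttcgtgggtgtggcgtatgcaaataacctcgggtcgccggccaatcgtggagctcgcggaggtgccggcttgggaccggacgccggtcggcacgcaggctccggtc
Kcnn4: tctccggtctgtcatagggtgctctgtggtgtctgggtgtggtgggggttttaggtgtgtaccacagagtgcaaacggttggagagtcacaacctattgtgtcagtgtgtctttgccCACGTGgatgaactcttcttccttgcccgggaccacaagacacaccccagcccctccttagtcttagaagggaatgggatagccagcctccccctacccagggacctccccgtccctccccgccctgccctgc
Orai2 held CACGTG 2 times, beginning 84 and 51 bases before the start, Kcnn4 held it 1 time, 133 bases before the start, and Orai1 did not hold it. Among 32851 promoters of the same length 6.02% held it at least 1 time and 0.429% held it 2 or more times. Since it is a palindrome, both strands are covered by 1 search. The G and C content was 63.6% for Orai2, 70.8% for Orai1 and 58.8% for Kcnn4, against a median of 52.4% over all these promoters. The motif was picked with the fold changes known, a match is not a binding site, and nothing follows from the lack of one. Other short motifs were searched in the same promoters, and their counts are not shown. The background shares do not allow for the number of motifs and promoters searched. An entry existed for 9 of the 10 members, all except Trpm4. Of these, only Orai2 and Kcnn4 held CACGTG. Their log2 fold changes had opposite signs, 0.47 for Orai2 (adjusted p = 0.00796, edgeR) and -0.41 for Kcnn4 (adjusted p = 0.066, edgeR). Stim1, Stim2, P2rx1, P2rx4 and Trpv2, whose PS and CT libraries did not overlap, lacked CACGTG. So did Orai1 and P2rx7, whose libraries overlapped.

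Orai1 encodes the main pore of store-operated entry in mouse mast cells. Orai1 had 11.7, 10.9 and 12.3 CPM in PS libraries and 11.1, 10.9 and 12.2 CPM in CT libraries. The groups covered the same range, and the log2 fold change was 0.03 ± 0.08 (SE; adjusted p = 0.88, edgeR). The count ratio of Orai1 to Orai2 was 0.0935, 0.0844 and 0.101 in PS libraries, against 0.116, 0.129 and 0.134 in CT libraries. Every PS library lay below every CT library, and the log2 ratio was lower by 0.44 on average (-0.44; two-sided exact permutation p = 0.1, the smallest that 3 against 3 can give; 0.2 adjusted over the 4 ratios compared). Per kilobase of exon, Orai2 stood at 4.08 ± 0.372 times the level of Orai1 in PS libraries and at 3.00 ± 0.228 times in CT libraries (SD, n = 3 each). Orai3, the remaining family member, was at 9.73 ± 0.13 CPM per kilobase in PS libraries and 9.39 ± 0.436 in CT libraries, above Orai1 in both groups, and did not pass the test (adjusted p = 0.665, edgeR).

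Stim1 encodes the main store sensor. Stim1 had 148, 155 and 142 CPM in PS libraries, against 133, 120 and 132 CPM in CT libraries. The groups did not overlap, but the log2 fold change of 0.21 ± 0.06 (SE) missed the threshold (adjusted p = 0.0832, edgeR). It passed with DESeq2 (adjusted p = 0.0348) and without PS replicate 3 (adjusted p = 0.0363, edgeR). Stim2 encodes a sensor that responds to smaller losses of store calcium and holds resting calcium. Stim2 had 22.2, 23.2 and 21.9 CPM in PS libraries, against 23.6, 25.1 and 24.3 CPM in CT libraries. Every PS library was lower by a small margin, with a log2 fold change of -0.11 ± 0.06 (SE; adjusted p = 0.284, edgeR). The count ratio of Stim1 to Stim2 was 6.65, 6.67 and 6.49 in PS libraries and 5.64, 4.79 and 5.46 in CT libraries. All PS libraries were higher, by 0.32 on the log2 scale (two-sided exact permutation p = 0.1, adjusted over 4 ratios 0.2).

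**Figure D2:**
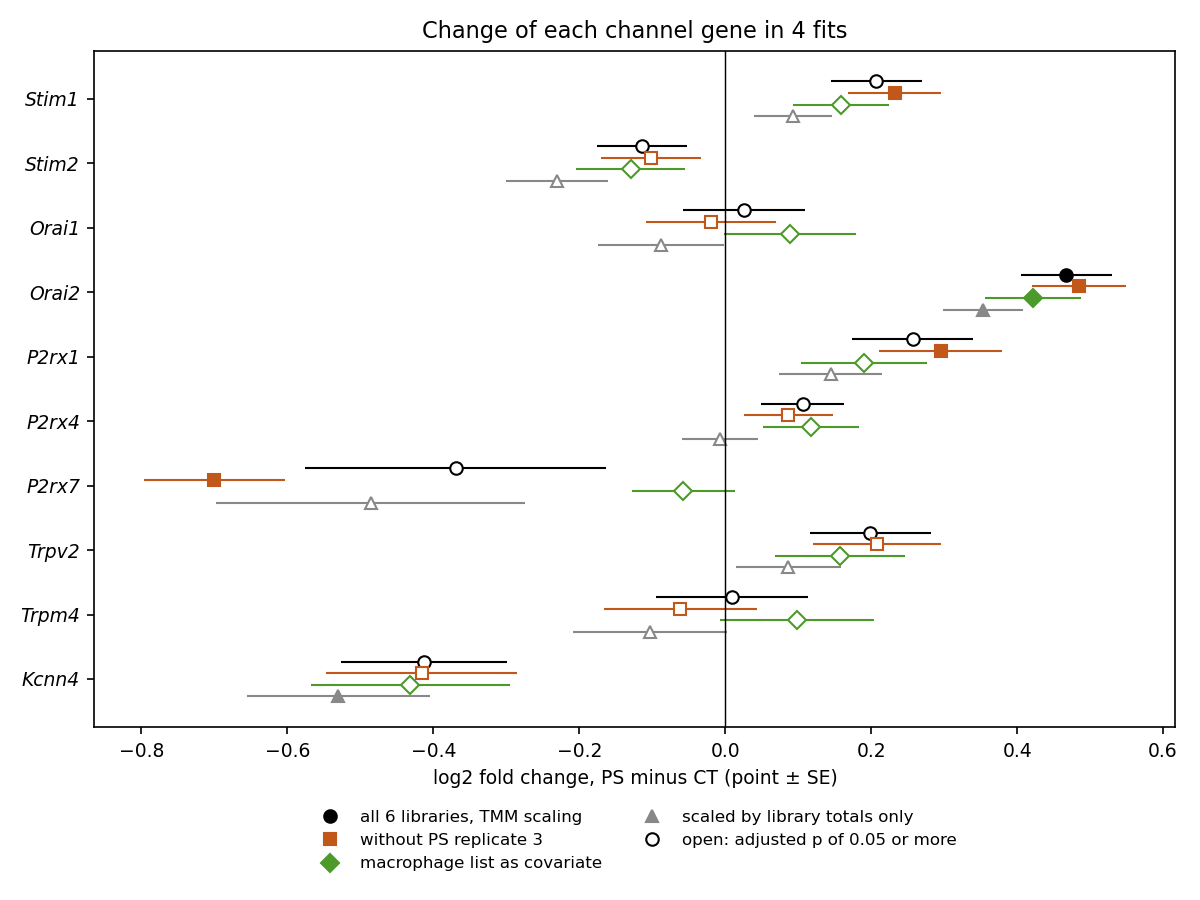
Log2 fold change (PS minus CT) of each member ± SE in 4 edgeR fits: all 6 libraries with TMM scaling, without PS replicate 3, with the macrophage list as covariate, and scaled by library totals. Filled symbols have an adjusted p under 0.05. Orai2 lay between 0.35 and 0.48 in these fits and was filled in all 4, while P2rx7 was at -0.37 with all libraries, -0.70 without PS replicate 3 and -0.06 with the macrophage covariate.

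P2rx1 encodes an ATP receptor that opens at low ATP and closes within moments. P2rx1 had 301, 296 and 273 CPM in PS libraries, against 259, 214 and 255 CPM in CT libraries. The groups did not overlap, and the log2 fold change was 0.26 ± 0.08 (SE; adjusted p = 0.0988, edgeR). It passed with DESeq2 (adjusted p = 0.0364) and without PS replicate 3 (adjusted p = 0.0424, edgeR). As a share of Kit counts it was 12.9%, 13.7% and 14.4% in PS libraries, against 13.4%, 13.1% and 13.5% in CT libraries, so relative to Kit the groups overlapped. Platelets are another cell type in which P2X1 is known. Their gene Gp9 was at 0.425 to 0.792 CPM over all libraries, while the summed platelet list was 302 to 527 CPM in PS libraries and 367 to 410 CPM in CT libraries, most of it Pf4, and 1 gene of that list was higher in PS libraries, Itga2b. Their part in the P2rx1 level was not tested.

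P2rx4 encodes an ATP receptor that is held largely in lysosomes, and ATP acting on it has been reported to strengthen degranulation of mouse mast cells. P2rx4 had 88.0, 86.8 and 90.2 CPM in PS libraries, against 84.6, 77.0 and 84.5 CPM in CT libraries. The PS libraries were higher by less than the distance between CT libraries, with a log2 fold change of 0.11 ± 0.06 (SE; adjusted p = 0.284, edgeR) that turned to -0.01 with library totals alone. The count ratio of P2rx1 to P2rx4 was 3.42, 3.41 and 3.02 in PS libraries and 3.06, 2.78 and 3.02 in CT libraries, a log2 difference of 0.15 (two-sided exact permutation p = 0.2, adjusted over 4 ratios 0.267).

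P2rx7 encodes the receptor that needs high ATP, and in macrophages it triggers the NLRP3 inflammasome. P2rx7 had 44.5, 37.7 and 72.3 CPM in PS libraries, against 60.2, 73.1 and 66.4 CPM in CT libraries. PS replicates 1 and 2 were below every CT library and PS replicate 3 lay among them, at a log2 ratio of 0.81 over the mean of the other PS libraries, where 98.3% of all genes tested had a lower ratio. With all libraries the log2 fold change was -0.37 ± 0.21 (SE; adjusted p = 0.302, edgeR), and without PS replicate 3 it was -0.70 and passed (adjusted p = 0.00213, edgeR). Without PS replicate 2 it was -0.19 (adjusted p = 0.623, edgeR) and without PS replicate 1 it was -0.28 (adjusted p = 0.516, edgeR). With the mean macrophage marker level as a covariate it was -0.06 (adjusted p = 0.694, edgeR).

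The order of the 3 libraries within each group was the same for P2rx7 and for the macrophage gene Adgre1. Adgre1, which encodes F4/80, had 266, 244 and 404 CPM in PS libraries, against 380, 438 and 410 CPM in CT libraries, with PS replicate 3 high for both. As a share of Adgre1 counts P2rx7 was 16.7%, 15.5% and 17.9% in PS libraries and 15.8%, 16.7% and 16.2% in CT libraries, a 1.15-fold range over all libraries. As a share of Kit counts it was 1.91%, 1.74% and 3.83% in PS libraries and 3.13%, 4.47% and 3.51% in CT libraries, a 2.57-fold range. These shares were chosen after the values were seen and are a description only. Of the 16 macrophage and monocyte markers, 1 was higher (Cd68), 1 lower (Cx3cr1) and 14 did not pass the test, with a median log2 fold change of -0.26. Their mean log2 CPM differed by -0.24 (two-sided exact permutation p = 0.4, where the smallest possible is 0.1), by -0.42 without PS replicate 3 (exact permutation p = 0.2) and by -0.12 without PS replicate 2 (exact permutation p = 0.8). The count ratio of P2rx7 to P2rx4 was 0.506, 0.435 and 0.802 in PS libraries, against 0.712, 0.950 and 0.786 in CT libraries, a log2 difference of -0.53 (two-sided exact permutation p = 0.3, adjusted over 4 ratios 0.3), of -0.79 without PS replicate 3 and of -0.35 without PS replicate 2.

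**Figure D3:**
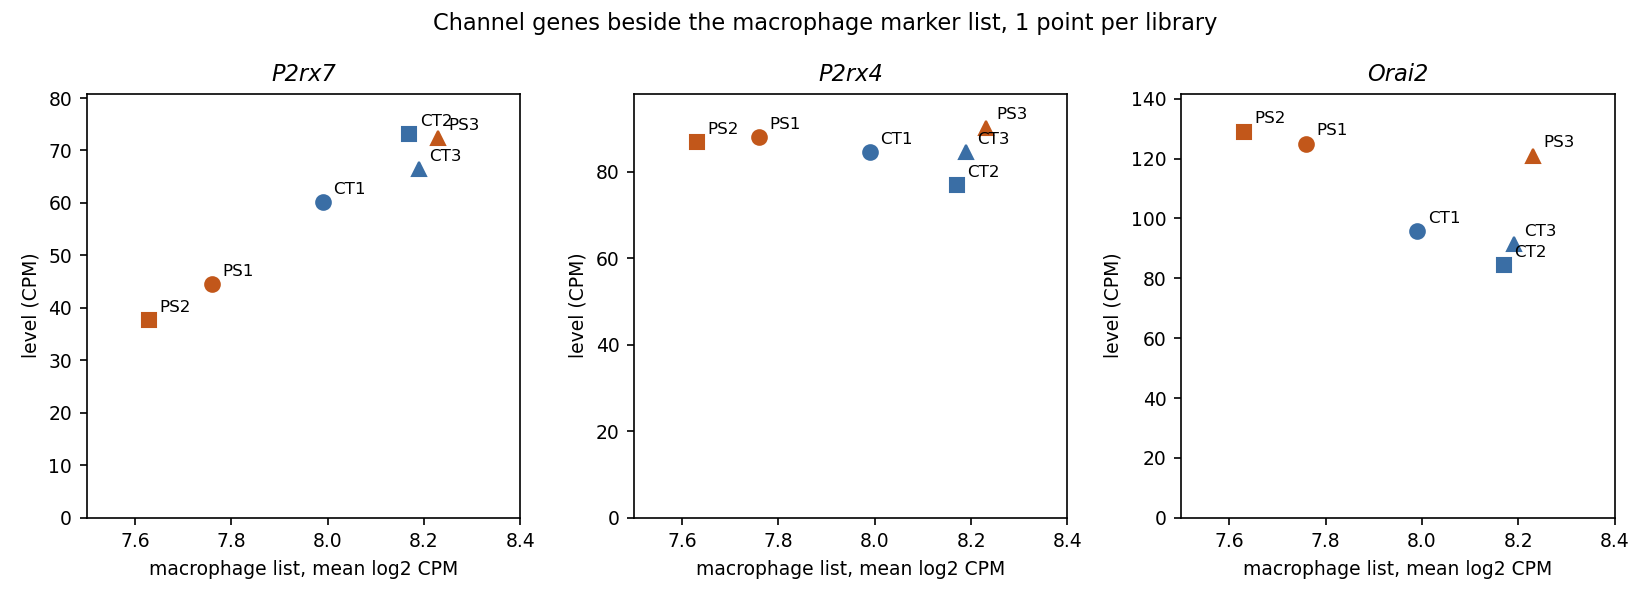
Level of P2rx7, P2rx4 and Orai2 (CPM, vertical axis) against the mean level of the 16 macrophage and monocyte markers (log2 CPM, horizontal axis) in each PS and CT library. P2rx7 was low in PS replicates 1 and 2, where the markers were at 7.76 and 7.63, and at 72.3 CPM in PS replicate 3, where they were at 8.23.

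Trpv2 encodes a cation channel opened by heat, stretch and some ligands, and has been tied to the response of mast cells to physical stimuli. Trpv2 had 102, 103 and 100 CPM in PS libraries, against 97.2, 77.0 and 92.1 CPM in CT libraries. The PS libraries were nearly equal and the CT libraries spread more widely, with no overlap. The log2 fold change of 0.20 ± 0.08 (SE) did not pass (adjusted p = 0.181, edgeR), and with library totals alone the groups overlapped.

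Trpm4, the calcium-activated cation channel, was among the less abundant members. It had 12.0, 10.2 and 12.7 CPM in PS libraries, against 11.6, 10.6 and 12.5 CPM in CT libraries. The groups covered the same range, and the log2 fold change was 0.01 ± 0.10 (SE; adjusted p = 0.967, edgeR). Kcnn4, the calcium-activated potassium channel, was the member with the lowest CPM in every library. It had 4.34, 4.53 and 4.43 CPM in PS libraries, against 6.07, 6.46 and 5.16 CPM in CT libraries. All PS libraries were lower, and the log2 fold change of -0.41 ± 0.11 (SE) missed the threshold (adjusted p = 0.066, edgeR). It passed with DESeq2 (adjusted p = 0.0308), without a filter on low counts (adjusted p = 0.047, edgeR) and with library totals alone, where it was -0.53 (adjusted p = 0.034, edgeR).

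Per kilobase of exon, which allows levels of different genes to be compared, the order of the members averaged over all 6 libraries ran from P2rx1 (101 CPM per kilobase) through Trpv2 (21.3), Orai2 (17.7), Stim1 (13.3), P2rx4 (12.1), P2rx7 (9.89), Orai1 (5.02), Stim2 (4.56) and Trpm4 (1.07) to Kcnn4 (1.01). P2rx1 was at 110 ± 5.71 CPM per kilobase in PS libraries and 92.4 ± 9.49 in CT libraries (SD, n = 3 each), above every other member and below Kit at 239 ± 24.7 in PS libraries and 204 ± 17.8 in CT libraries. In PS libraries no neighbours in this order overlapped. In CT libraries Stim1 overlapped with P2rx4, P2rx4 with P2rx7, Orai1 with Stim2 and Trpm4 with Kcnn4. The gene models of GENCODE M21 gave the lengths, and the isoforms used by these cells were not taken into account.

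**Figure D4:**
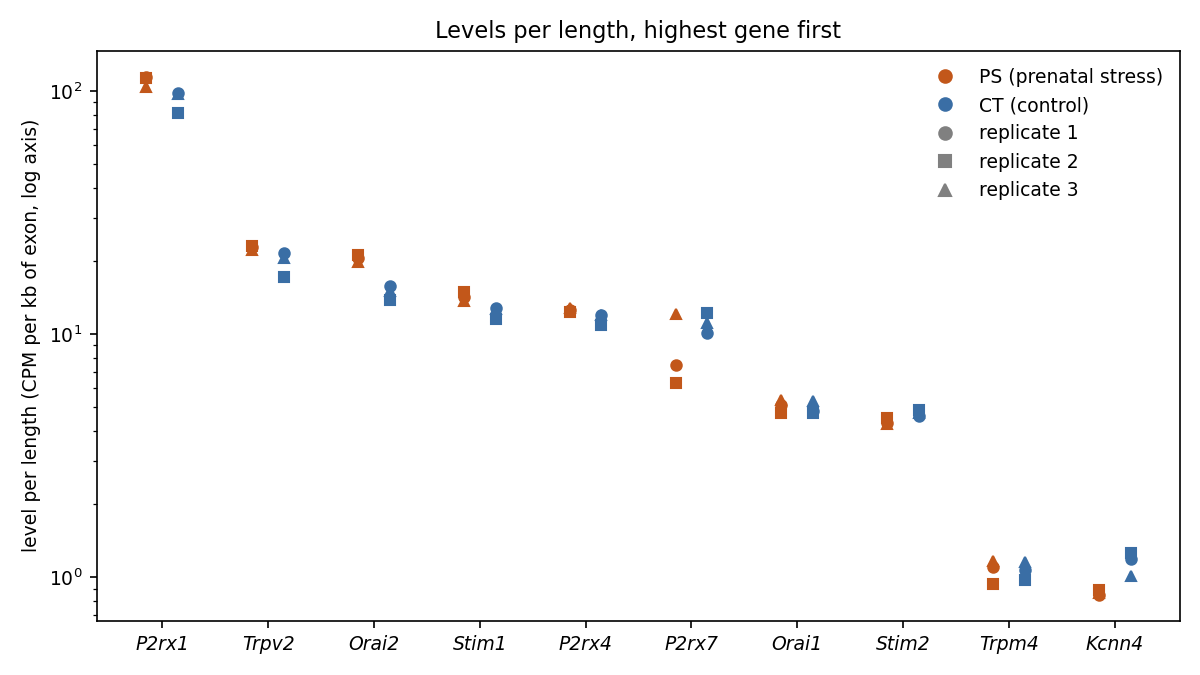
Level of the 10 members per kilobase of exon (CPM per kilobase, log axis) in PS and CT libraries, ordered by the mean over all libraries. P2rx1 at 101 CPM per kilobase lay above Trpv2 at 21.3, and Trpm4 and Kcnn4 were lowest at 1.07 and 1.01, with Kcnn4 at 0.867 and Trpm4 at 1.07 in PS libraries and Kcnn4 at 1.15 and Trpm4 at 1.07 in CT libraries.

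The rest of the pathway was read from 10 lists with 144 gene symbols, in which Stimate and Tmem110, and Cracr2b and Efcab4a, name the same gene. The count tables held 142 of the symbols, and 112 passed the filter on low counts. Of these, 6 were higher and 2 lower in PS libraries, which is 7.14% and close to the 6.19% over all genes tested, and their median log2 fold change was 0.01. Of 15 genes for calcium release, store refilling and calcium export, 1 was higher, Atp2b4, a plasma membrane calcium pump. With library totals 0 genes of this list were higher and 3 lower, where 12.5% of all genes passed. Without PS replicate 3, 4 were higher and 3 lower, where 15.4% of all genes passed. Atp2b4 was at 23.8 ± 2.92 CPM in PS libraries and 16.8 ± 1.53 CPM in CT libraries, with a log2 fold change of 0.50 ± 0.11 (SE; adjusted p = 0.0312, edgeR). The IP3 receptor Itpr3, which releases store calcium, was at 179 ± 16.2 CPM in PS libraries and 156 ± 11.7 CPM in CT libraries and did not pass (adjusted p = 0.184, edgeR). It passed as higher in the fit without PS replicate 3 (adjusted p = 0.0392, edgeR).

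Of 8 partners and regulators of STIM and ORAI that were tested, 2 were higher and 0 lower, beside 4.34% and 1.85% of all genes tested. With the replicate block or the macrophage covariate 0 of the 8 passed. Septin7, a filament protein of the cell cortex known from the fly to restrain ORAI, was at 402 ± 22.1 CPM in PS libraries and 323 ± 12.8 CPM in CT libraries (log2 fold change 0.32, adjusted p = 0.028, edgeR). Esyt2, which tethers the endoplasmic reticulum to the plasma membrane, was at 541 ± 33.2 CPM in PS libraries and 403 ± 52.3 CPM in CT libraries (log2 fold change 0.42, adjusted p = 0.0407, edgeR). Saraf, which slows STIM1, had 174, 192 and 183 CPM in PS libraries, against 175, 145 and 170 CPM in CT libraries, and did not pass (adjusted p = 0.239, edgeR). Cracr2a, a calcium-binding partner of ORAI1, had 36.3, 31.5 and 27.9 CPM in PS libraries, against 26.0, 23.5 and 24.9 CPM in CT libraries, and missed the threshold (adjusted p = 0.0596, edgeR). It passed as higher with DESeq2, without a filter and without PS replicate 3 (adjusted p = 0.00593 in the last, edgeR). In these fits 14.8%, 6.60% and 15.4% of all genes passed.

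Downstream of calcium entry, none of 17 calcineurin and NFAT genes passed with edgeR or limma-voom. With DESeq2 5 of 16 passed as higher, where 14.8% of all genes passed, and edgeR called Camk2d as higher without a filter and Rcan1 as higher with the macrophage covariate. The median log2 fold change was 0.15, and 6 of the 17 had an unadjusted p under 0.05 with edgeR, against 24.8% of all genes. In 7 of them every PS library was above every CT library, a separation seen in 16.0% of all genes. None of 11 genes of mitochondrial calcium transport passed with edgeR (2 with an unadjusted p under 0.05, against 24.8% of all genes) or limma-voom. Of them 2 passed as higher with DESeq2, where 14.8% of all genes passed. The edgeR fit called Mcu as higher with the stricter filter and Mcu and Smdt1 without a filter, and Letm1 as lower with library totals. Vdac2, an outer membrane channel and the most abundant of them, was at 0.12 on the log2 scale (adjusted p = 0.265, edgeR).

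Of 10 genes that release or break down ATP and its products, 2 were higher and 0 lower, beside 4.34% and 1.85% of all genes tested. Slc29a1, which carries adenosine across the membrane, was at 620 ± 41.5 CPM in PS libraries and 448 ± 36.1 CPM in CT libraries, with a log2 fold change of 0.47 ± 0.08 (SE; adjusted p = 0.0157, edgeR). Ada, which turns adenosine into inosine, was at 43.1 ± 4.61 CPM in PS libraries and 30.4 ± 4.02 CPM in CT libraries (log2 fold change 0.50, adjusted p = 0.0344, edgeR). Of 10 other P2X and P2Y receptors, 0 passed with edgeR (2 with an unadjusted p under 0.05), limma-voom or DESeq2, and P2ry6 as lower with edgeR without a filter. The median log2 fold change was -0.27. P2ry12, an ADP receptor, had 28.5, 24.9 and 40.5 CPM in PS libraries, against 35.1, 43.1 and 41.0 CPM in CT libraries. It had PS replicate 3 at the CT level, as P2rx7 had. Without that library P2ry6, P2ry12 and P2ry13 passed as lower with edgeR, where 15.4% of all genes passed. With the macrophage covariate their adjusted p were 0.425, 0.526 and 0.69 (edgeR). Of 8 inflammasome genes 0 passed with edgeR (1 with an unadjusted p under 0.05) or limma-voom. Il1b passed as higher with DESeq2 and with edgeR without a filter, and Il1b and Nlrp3, the sensor of the inflammasome, passed as higher with the macrophage covariate. Il1b, which encodes the cytokine IL-1β, had 411, 444 and 607 CPM in PS libraries, against 355, 360 and 405 CPM in CT libraries. Its log2 fold change was 0.38 (adjusted p = 0.123, edgeR), 0.19 without PS replicate 3 (adjusted p = 0.129, edgeR) and 0.57 with the macrophage covariate (adjusted p = 0.00711, edgeR).

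Of 10 other TRP channels, 1 was higher and 0 lower, beside 4.34% and 1.85% of all genes tested. Trpm1, which is known from melanocytes and retina, had 0.992, 2.06 and 0.702 CPM in PS libraries, against 0.365, 0.323 and 0.405 CPM in CT libraries, with a log2 fold change of 1.77 ± 0.40 (SE; adjusted p = 0.0397, edgeR). The summed melanocyte markers were 41.0, 72.2 and 29.5 CPM in those PS libraries and 20.4, 14.3 and 14.5 CPM in those CT libraries, with PS replicate 2 highest for both. The part of melanocyte RNA in Trpm1 was not tested. Of 19 potassium, chloride and proton channels, 2 were lower and 0 higher, beside 1.85% and 4.34% of all genes tested. Kcnj2, an inward rectifier that sets the resting potential, was at 3.30 ± 0.0872 CPM in PS libraries and 4.60 ± 0.145 CPM in CT libraries (log2 fold change -0.48, adjusted p = 0.0355, edgeR). Kcnk5, a background potassium channel, was at 3.94 ± 0.776 CPM in PS libraries and 6.08 ± 0.609 CPM in CT libraries (log2 fold change -0.63, adjusted p = 0.0483, edgeR). None of 4 regulators of KCNN4 passed with edgeR (0 with an unadjusted p under 0.05), limma-voom or DESeq2, with Mtmr6, a lipid phosphatase that inhibits the channel, at a log2 fold change of 0.11 (adjusted p = 0.218, edgeR).

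Leaving out 1 library ended most of these calls, as it did for the genes called over all genes tested. Except in the fit without PS replicate 3, the share of all genes that passed fell from 6.19% to between 1.14% and 2.69%. Of the 1035 genes called with all libraries, those fits kept 194 to 441. Over the 6 fits that left out 1 library, Slc29a1 passed in 4 and was lost without PS replicate 2 or CT replicate 2. Esyt2 passed without PS replicate 3 or CT replicate 1, Ada without PS replicate 3 or CT replicate 3, and Atp2b4, Septin7, Trpm1, Kcnj2 and Kcnk5 in 1 fit, that without PS replicate 3. With the macrophage covariate Atp2b4 (adjusted p = 0.0465, edgeR) and Slc29a1 (adjusted p = 0.0269, edgeR) passed, and the other 6 did not. Without PS replicate 3, where 15.4% of all genes passed, 5 calcineurin and NFAT genes were higher and 1 lower, 7 potassium, chloride and proton channels were lower, and 3 inflammasome genes were lower (Casp1, Casp4 and Il18), so these counts depend on whether that library is included. The macrophage covariate gave 0 lower and 2 higher inflammasome genes. Atp2b4 did not pass with library totals (adjusted p = 0.0549, edgeR), and Trpm1 did not pass with limma-voom (adjusted p = 0.0645).

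**Figure D5:**
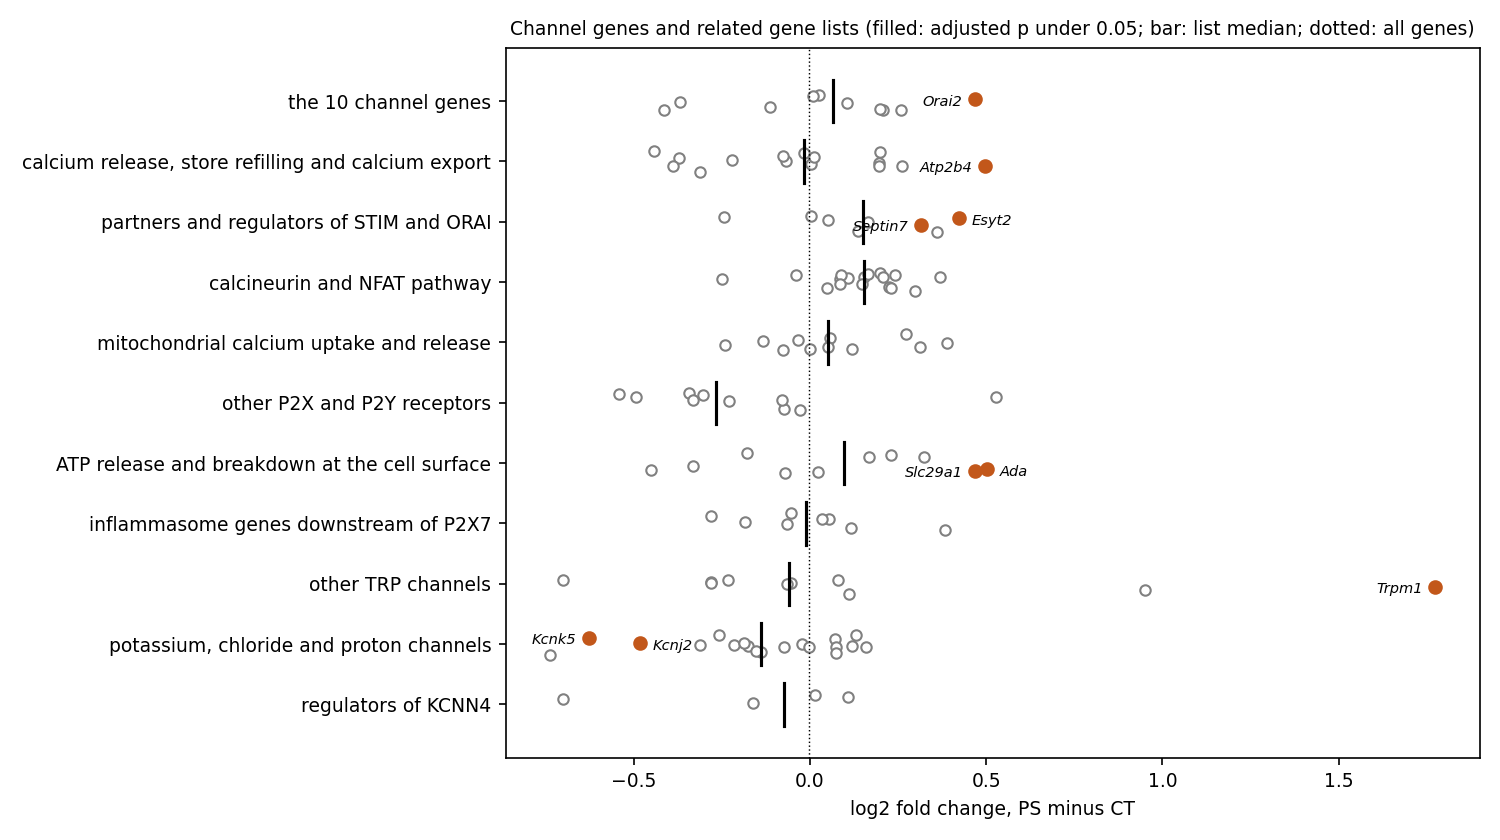
Log2 fold change (PS minus CT) of the 10 channel genes and of each tested gene in the 10 pathway lists (points), with the list median (bar) and the median of all genes (dotted line). Filled points have an adjusted p under 0.05. In the pathway lists 6 genes were higher and 2 lower, and the list medians ran from -0.27 (other P2X and P2Y receptors) to 0.15 (calcineurin and NFAT pathway).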

How the data were processed

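Per the labels, stranded poly-A paired-end libraries were made from sorted cells. The authors deposited raw counts of reads per gene symbol, 1 table per library, not normalized. FastQC, STAR 2.4 and HTSeq 0.9.1 and the builds GRCm39 and mm10 are named in the submitters' processing notes without a role, and for the strand setting and the annotation release the entry is "not given in the sources used here". The 5 rows that name no gene, 1 of them for reads without a unique alignment (8.49% to 9.00%), were outside the gene counts. The gene counts made up 79.7% to 81.4%. Both percentages are of all counts deposited for a library, not of all reads sequenced. At most 0.973% of the 75-base stretches of a member's transcripts occur in another gene (GENCODE M21, GRCm38), and 1.99% of P2rx7 exon bases overlap Mir8115.

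Genes were filtered with filterByExpr (minimum count 10), scaled with TMM factors and tested with edgeR 4.0.16 (quasi-likelihood, no covariate, R 4.3.3), with Benjamini-Hochberg adjustment over all 16716 genes at 0.05. The SE is the log2 fold change divided by the square root of F. CPM uses the TMM-scaled library sizes, and the biological coefficient of variation common to all genes was 10.4%. The alternatives were RLE factors, library totals, no filter, a stricter filter (10 counts in 3 libraries and a mean of 1 CPM), DESeq2 1.42.0, limma-voom 3.58.1, the replicate number as a block, the macrophage marker level as a covariate, and each library left out. Count ratios and the macrophage list were tested with exact permutation tests over libraries (SciPy 1.17.1).

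The members and lists were chosen with earlier results of these data known. Named by rule were all members and, from each list, its called genes (at most 4 by smallest p) or else its most abundant gene, 1 of which is not reported here; Orai3, Itpr3, Saraf, Cracr2a, P2ry6, P2ry13, Casp1, Casp4, Il18, Nlrp3, Camk2d, Rcan1, Mcu, Smdt1, Letm1 and the marker genes printed singly were named after their values were seen. Promoter sequences are from RefSeq (GRCm38.p6).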

Additional observations from a re-analysis of the deposited data

How the results depend on the processing

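Orai2 kept its direction and its call in all 14 alternatives. The genes called, 1035 with all libraries, were 2085 with library totals alone (553 higher, 1532 lower), 1933 without a filter, 1989 with DESeq2, 622 with the replicate block and 196 to 2647 without 1 library, the most without PS replicate 3. The members called, 1 with all libraries, were 2 with library totals and without a filter (Orai2, Kcnn4), 4 with DESeq2 (Stim1, Orai2, P2rx1, Kcnn4), and 1 to 4 without 1 library, 4 of them without PS replicate 3 (Stim1, Orai2, P2rx1, P2rx7). Those shares stand beside 12.5%, 6.60%, 14.8% and 15.4% of all genes with library totals, without a filter, with DESeq2 and without PS replicate 3. Members and genes that were not called changed sign with library totals in Orai1 (-0.08774), P2rx4 (-0.00746), Trpm4 (-0.1028), Mtmr6 (-0.005997) and Orai3 (-0.06). The median log2 fold change over all genes was also lower with library totals, at -0.12 against -0.00387 with TMM factors. Without 1 library Orai1 ran from -0.01965 to 0.07866 and Trpm4 from -0.06173 to 0.09114. The cause of the sign changes was not tested. Library totals moved the share of higher calls from 70.0% to 26.5%. Deviations from the group mean had correlations of 0.0954, -0.0188 and 0.0684 between same-numbered libraries, and of -0.2085 to 0.136 between differently numbered ones. With 3 libraries a group these values cannot settle whether the numbers pair the libraries. With the replicate block 1 member was called, Orai2 (adjusted p = 0.022, edgeR). Of the pathway genes Atp2b4, Slc29a1 and Kcnk5 passed with it, while Septin7 (0.0746), Esyt2 (0.0678), Ada (0.0506), Trpm1 (0.0582) and Kcnj2 (0.0751) had an adjusted p over 0.05. With 3 pools a group, the ratio tests cannot go below an exact p of 0.1, and the counts limit precision least for P2rx1 and most for Kcnn4.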

Other observations

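Levels of the members relative to the mast cell gene Kit are given here as values chosen after the data were seen and without a test. The share of all genes whose groups separate relative to Kit was not computed. On the CPM scale 30.6% of all genes tested separated. Orai2 was the member with a higher share of Kit counts in every PS library. Stim2 was 0.956%, 1.07% and 1.16% of Kit counts in PS libraries, against 1.23%, 1.54% and 1.28% in CT libraries, and Kcnn4 was 0.187%, 0.209% and 0.234% in PS libraries, against 0.316%, 0.395% and 0.272% in CT libraries. For both, every PS library was lower. The other 7 members overlapped between the groups relative to Kit, Stim1 at 6.36%, 7.16% and 7.53% in PS libraries and 6.91%, 7.36% and 6.99% in CT libraries among them. Against Cpa3, 9 of the 10 members, all except Orai2, were lower in every PS library. Cpa3 was itself higher in PS libraries (log2 fold change 0.55), beside a median of -0.00387 over all genes tested. A gene at that median is therefore lower relative to Cpa3. The share of all genes that were lower against Cpa3 in every PS library was not computed. Stim1 was at 0.432%, 0.374% and 0.431% of Cpa3 counts in PS libraries, against 0.507%, 0.554% and 0.504% in CT libraries.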
